A study of Mus musculus with 12 samples.

Results

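The signaling genes of the DNGR-1 pathway were examined in type 1 conventional dendritic cells (cDC1s) sorted from B16F10 melanomas: the kinase Syk, the phosphatase genes Ptpn6 (SHP-1), Ptpn11 (SHP-2) and Inpp5d (SHIP-1), the effectors Plcg2, Vav1 and Pik3ap1 (BCAP), and the complex genes Card9, Bcl10 and Malt1. They were chosen by gene symbol, and all 10 were found among the 11264 genes of the expression table and passed the filter on low values. DNGR-1, encoded by Clec9a, is a C-type lectin receptor of cDC1s that binds actin filaments exposed by dead cells. Its cytoplasmic tail carries a hemITAM, a single tyrosine motif that, once phosphorylated by Src family kinases, recruits SYK. In related receptors SYK activates PLCG2 and VAV1 and signals through the CARD9-BCL10-MALT1 complex to NF-kB. SHP-1 and SHP-2 are tyrosine phosphatases, SHIP-1 removes a phosphate from the lipid product of PI3K, and BCAP is an adaptor that recruits PI3K. SHP-1 has been described as a partner of DNGR-1 that limits cell activation. All of these proteins are regulated by phosphorylation and recruitment, which mRNA levels do not measure.

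The design crossed genotype with plasmid, with 3 libraries in each of 4 groups: Clec9agfp/gfp mice given a plasmid that encodes Flt3L (Clec9agfp/gfp FL), WT mice given the same plasmid (WT FL), Clec9agfp/gfp mice given the empty plasmid (Clec9agfp/gfp control) and WT mice given the empty plasmid (WT control). The Clec9agfp/gfp allele, backcrossed to C57BL/6, disrupts Clec9a in the whole animal and not in cDC1s alone. Flt3L, the growth factor of dendritic cells, was made mainly in the liver after hydrodynamic injection, 1 day before tumor inoculation, and tumors were taken on day 13. Mice were C57BL/6, sex-matched and 7 to 10 weeks old, every mouse carried tumors on both flanks, and each library pooled cDC1s of 2 to 3 mice. In sorted cell RNA, a change in the cells that make a transcript and a change in the RNA of each cell cannot be told apart.

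The hemITAM that feeds this machinery can be read in the receptor genes. The starts of the coding sequences of DNGR-1, of Dectin-1 (Clec7a, the receptor of fungal beta-glucans) and of CLEC-2 (Clec1b, the podoplanin receptor of platelets) are shown because these 3 genes of the same cluster on chromosome 6 encode hemITAM receptors that use SYK. Each stretch holds the 75 bases that follow from the start codon in the GENCODE M21 transcripts (GRCm38), and capitals mark a tyrosine codon followed, 3 codons later, by a leucine codon in the same frame.
Clec9a, start codon at chromosome 6 position 129408955, plus strand: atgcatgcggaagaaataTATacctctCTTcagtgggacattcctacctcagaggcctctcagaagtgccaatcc
Clec7a, start codon at chromosome 6 position 129472685, minus strand: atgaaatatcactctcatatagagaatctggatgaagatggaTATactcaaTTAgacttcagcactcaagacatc
Clec1b, start codon at chromosome 6 position 129397615, plus strand: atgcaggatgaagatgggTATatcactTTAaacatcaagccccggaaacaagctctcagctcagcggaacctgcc
Each stretch held the pattern exactly 1 time, with the tyrosine at codon 7 in Clec9a, at codon 15 in Clec7a and at codon 7 in Clec1b.

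Depth is given as the effective library size behind the deposited TMM scaling, which can differ from the number of reads. It was 14.4 to 25.9 M per library (M for 1000000), apart from Clec9agfp/gfp control replicate 3 with 3.06 M. Clec9a matched the genotype labels in all 12 libraries: it lay at 1.36, 0.269 and 0.789 CPM (counts per 1000000 reads, TMM-scaled) in Clec9agfp/gfp FL and 0.509, 1.31 and 10.9 CPM in Clec9agfp/gfp control, against 328 to 388 CPM in WT FL and 288 to 371 CPM in WT control. The 10.9 CPM stood for 33 reads in the shallow library. The cDC1 label held, with all 17 cDC1 markers in the table, Xcr1 at 1211 to 1972 CPM and Irf8 at 2588 to 3474 CPM. Some markers ranged more widely, such as Batf3 at 34.1 to 127, Itgae at 425 to 1256 and Wdfy4 at 360 to 1339 CPM. At an adjusted p under 0.1 in limma, 1 of the 17 was higher in WT FL against WT control (6.56% of all genes called). Over both genotypes, FL against control had 1 higher and 2 lower (17.5% of all genes called). Of the markers of other cells, none of 6 NK and none of 6 neutrophil genes were in the table, 1 of 8 B cell and 2 of 8 T cell genes summed to at most 3.75 and 5.51 CPM, and 6 of 8 cDC2 genes summed to 25.5 to 73.4 CPM. The 13 of 16 macrophage and monocyte genes summed to 1639.6 to 2056 CPM in Clec9agfp/gfp FL and 1478 to 1777 CPM in WT FL. The sums were 1284 to 1648 CPM in Clec9agfp/gfp control and 1617 to 2297 CPM in WT control. They were mostly Ccr2, Lyz2 and Cd68, with Ly6c2 at up to 107, Apoe at up to 61.0 and C1qb at up to 36.0 CPM. C1qa reached no more than 14.4 CPM, and Cd163 and Mertk were outside the table. In limma, 4 of the 13 rose in Clec9agfp/gfp FL against Clec9agfp/gfp control (list median 0.92 on the log2 scale), beside 5.46% of all genes called in either direction. In WT FL against WT control 0 of 13 rose, beside 6.56% of all genes called. There, 0 were higher and 1 was lower at an unadjusted p under 0.05 in limma. Melanoma genes (6 of 6) summed to 16.1 to 112 CPM. Plasmacytoid genes (5 of 7) summed to 93.6 to 108 CPM in WT FL and 118 to 183 CPM in WT control, and fibroblast and endothelium genes (4 of 8) to 18.9 to 22.0 CPM in WT FL and 7.68 to 12.6 CPM in WT control, without overlap. In Clec9agfp/gfp FL the sums were 101 to 148 and 15.2 to 54.2 CPM, and in Clec9agfp/gfp control 80.8 to 101 and 7.13 to 41.4 CPM. Kit, the receptor of stem cell factor and the only 1 of 5 mast cell genes in the table, lay at up to 407 CPM in Clec9agfp/gfp FL, at 237 to 360 CPM in WT FL, 197 to 272 CPM in Clec9agfp/gfp control and 58.9 to 182 CPM in WT control, and rose in WT FL against WT control (log2 fold change 1.62, adjusted p = 0.0388 in limma). The part of these genes in the differences of the members was not tested.

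WT control replicates 1 and 3 stood apart from the other 10 libraries. On the first principal component, which held 32.9% of the variance, they lay at -50.0 and -54.9, while the other libraries lay between -11.9 and 46.3. Ribosomal protein genes took 3.30% and 3.09% of their values, against 1.41% to 2.65% elsewhere. Long transcripts were also lower in them: with genes split by transcript length into 5 bins, the median deviation from the gene mean in the longest bin minus that in the shortest was -0.39 and -0.99 on the log2 scale in replicates 1 and 3, against -0.22 in WT control replicate 2 and -0.13 to 0.36 in the other 9 libraries. Members called in comparisons with WT control, or over both genotypes, are therefore also given without these libraries.

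Members were expressed over a wide range. Per kilobase of the longest protein-coding transcript, the mean over 12 libraries was highest for Ptpn6 at 234 CPM, followed by Vav1 at 96.8, Inpp5d at 80.3, Plcg2 at 56.1 and Pik3ap1 at 48.0 CPM per kilobase. Bcl10 (25.9), Syk (10.2), Ptpn11 (8.75), Malt1 (3.56) and Card9 (3.26 CPM per kilobase) came below these. Ptpn6 lay between 186 and 275 CPM per kilobase and overlapped no other member in any library. Bcl10 at 19.2 to 30.1 did not overlap Syk at 6.64 to 14.9 CPM per kilobase. The ranges of Vav1, Inpp5d, Plcg2 and Pik3ap1 overlapped each other, and Bcl10 overlapped the low ends of Inpp5d, Plcg2 and Pik3ap1, which came from WT control. Syk overlapped Ptpn11, Ptpn11 overlapped Malt1, and Malt1 overlapped Card9. Ptpn11, from 4.76 CPM per kilobase, also just overlapped Card9, up to 4.80 CPM per kilobase. Compared within each library, Ptpn6 exceeded Vav1, Inpp5d exceeded Plcg2, Bcl10 exceeded Syk and Ptpn11 exceeded Malt1 in 12 of 12 libraries. The other neighbors in the order changed places in some libraries: Vav1 exceeded Inpp5d in 9, Plcg2 exceeded Pik3ap1 in 10, Pik3ap1 exceeded Bcl10 in 10, Syk exceeded Ptpn11 in 8 and Malt1 exceeded Card9 in 6 of 12. In mean CPM without length scaling, Ptpn6 stood at percentile 98.0 of the genes tested and Syk at percentile 72.3.

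**Figure D1:**
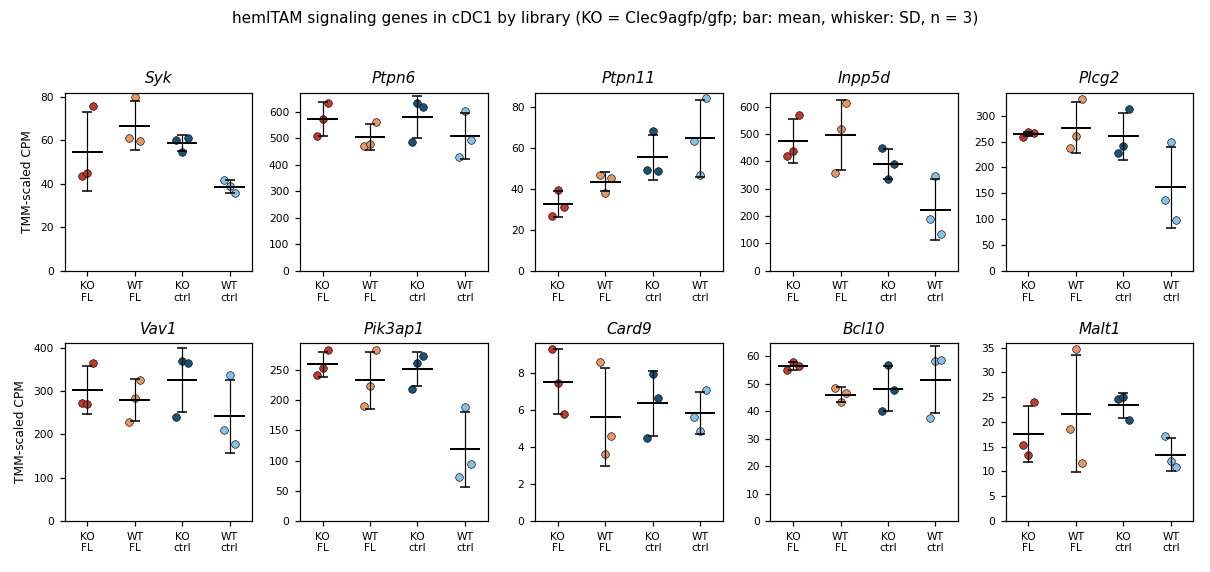
Each panel plots 1 gene in 12 libraries, with the group on the horizontal axis (KO, Clec9agfp/gfp; ctrl, empty plasmid) and TMM-scaled CPM from 0 on the vertical axis; points are libraries, bars means and whiskers SDs. Syk, Inpp5d and Pik3ap1 are lower in all 3 WT control libraries than in all 3 WT FL libraries, and Ptpn6 overlaps in all groups.

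The comparisons ask whether Flt3L or the loss of DNGR-1 changes this machinery. Counts below are of genes with an adjusted p under 0.1 (limma on log2(CPM + 1), all 12 libraries in the fit, Benjamini-Hochberg over 11255 genes), the threshold used in the study. In WT FL against WT control, 4 of 10 members rose (Syk, Inpp5d, Plcg2 and Pik3ap1) and none fell, where 6.56% of all genes tested passed in either direction and 5.37% were higher. Of the members, 0 of 10 passed in limma in Clec9agfp/gfp FL against Clec9agfp/gfp control, where 5.46% of all genes passed. Only Ptpn11 had an unadjusted p under 0.05 there, and with limma-voom the count was also 0. Over both genotypes, FL against control gave 3 of 10, with Inpp5d and Pik3ap1 higher and Ptpn11 lower, where 17.5% of all genes passed, 9.60% higher and 7.85% lower. In Clec9agfp/gfp FL against WT control, where both factors differ, Inpp5d, Plcg2 and Pik3ap1 were higher and Ptpn11 was lower, 4 of 10 members beside 22.7% of all genes (12.8% higher, 9.85% lower). These comparisons share libraries, so their calls are not separate evidence. The median log2 fold change of the members was 0.40 in WT FL against WT control and 0.01 in Clec9agfp/gfp FL against Clec9agfp/gfp control, beside medians of -0.01 and 0.01 over all genes.

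Between genotypes no member passed in limma. In Clec9agfp/gfp FL against WT FL, 0 of 10 passed (0.0267% of all genes) and 0 had an unadjusted p under 0.05. In Clec9agfp/gfp control against WT control, 0 of 10 passed (0.0267% of all genes), although 5 had an unadjusted p under 0.05, where 19.6% of all genes did. Over both plasmids, 0 of 10 passed (0.0267% of all genes) with 2 at an unadjusted p under 0.05, where 10.8% of all genes did. The interaction, which tests whether the difference between FL and control differs between genotypes, gave 0 of 10 (0% of all genes) with 4 members at an unadjusted p under 0.05, where 9.12% of all genes did. Limma-voom gave 0 members in each of these 4 comparisons as well. Libraries of a pair of groups did not overlap for 1 of 10 members in Clec9agfp/gfp FL against Clec9agfp/gfp control (24.2% of all genes), 3 in WT FL against WT control (22.9%), 1 in Clec9agfp/gfp FL against WT FL (9.89%) and 3 in Clec9agfp/gfp control against WT control (16.5%).

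**Figure D2:**
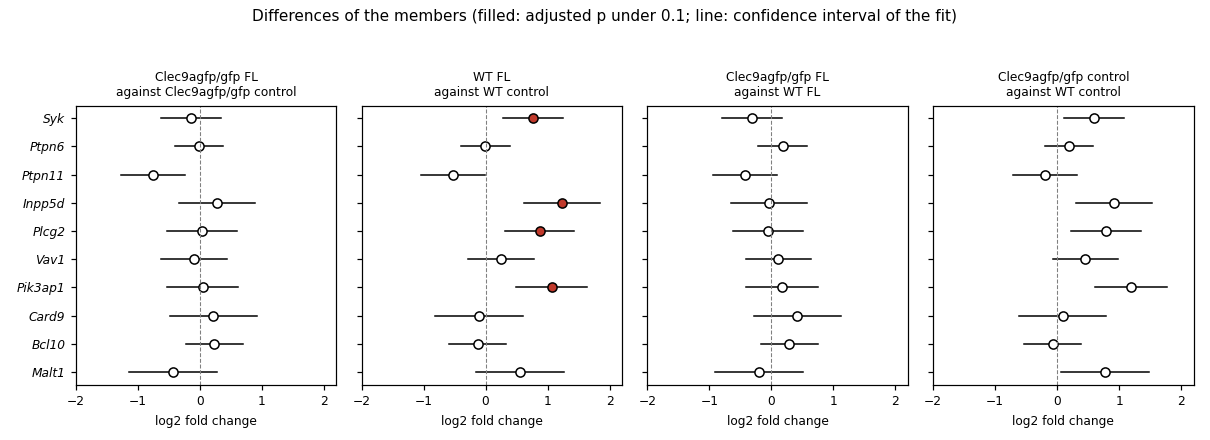
Each panel plots a comparison, with the log2 fold change on log2(CPM + 1) on the horizontal axis, 1 member per row, lines for the 95% interval of the limma fit and filled points for an adjusted p under 0.1. The 4 filled points all lie in WT FL against WT control, and the intervals of all 10 members include 0 in Clec9agfp/gfp FL against WT FL.

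SYK is the kinase that docks to the phosphorylated hemITAM, and its gene lies on chromosome 13 (GRCm38, 52583173 to 52648792, plus strand, 14 exons in its longest protein-coding transcript). Syk had 43.6, 45.0 and 75.9 CPM in Clec9agfp/gfp FL, 61.0, 79.9 and 59.6 CPM in WT FL, 60.4, 54.7 and 61.2 CPM in Clec9agfp/gfp control and 41.8, 38.9 and 35.6 CPM in WT control. All WT control libraries were below every other library. Syk rose 1.69-fold in WT FL against WT control (log2 fold change 0.76 ± 0.23 SE, adjusted p = 0.0844 in limma). In Clec9agfp/gfp FL against Clec9agfp/gfp control the log2 fold change was -0.14 (95% interval -0.63 to 0.34, limma), with 2 of 3 FL libraries below all control libraries of that genotype. The interaction was -0.90 ± 0.32 SE with an unadjusted p of 0.0125 and an adjusted p of 0.457 in limma, so a difference in response between genotypes was not called. Between controls Syk was 0.59 higher on the log2 scale in Clec9agfp/gfp (adjusted p = 0.196, limma) with no overlap of libraries, and 0.58 higher without WT control replicates 1 and 3 (adjusted p = 0.999). The two-sided exact permutation test gave p = 0.1 for Syk in these controls and in WT FL against WT control, the smallest that 3 against 3 libraries allow.

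PLCG2 is the phospholipase that raises calcium after SYK activation, and its gene lies on chromosome 8 (117498291 to 117635142, plus strand). Plcg2 had 259.9, 268 and 266 CPM in Clec9agfp/gfp FL, 238, 261 and 333 CPM in WT FL, 227, 243 and 312 CPM in Clec9agfp/gfp control and 137, 249 and 98.0 CPM in WT control. WT control replicate 2 lay within the WT FL range, and the other 2 WT control libraries lay below all libraries of the other groups. It rose 1.83-fold in WT FL against WT control (log2 fold change 0.87 ± 0.27 SE, adjusted p = 0.0880 in limma). In Clec9agfp/gfp FL against Clec9agfp/gfp control the log2 fold change was 0.03 (95% interval -0.53 to 0.60, limma).

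Pik3ap1 encodes BCAP, the adaptor that brings PI3K to the membrane, and lies on chromosome 19 (41272377 to 41385102, minus strand). It had 242, 253 and 282 CPM in Clec9agfp/gfp FL, 190.4, 224 and 283 CPM in WT FL, 219, 262 and 273 CPM in Clec9agfp/gfp control and 72.1, 188 and 95.0 CPM in WT control. The groups other than WT control overlapped, and all WT control libraries lay below them, with replicate 2 only just below the lowest WT FL library. Pik3ap1 rose 2.10-fold in WT FL against WT control (log2 fold change 1.07 ± 0.27 SE, adjusted p = 0.0560 in limma). It also had the smallest unadjusted p of the members between controls, 0.000438 at a log2 fold change of 1.19 ± 0.27 SE in Clec9agfp/gfp control against WT control, with an adjusted p of 0.188 in limma, which dropped to 0.41 without WT control replicates 1 and 3 (adjusted p = 0.999). Its interaction was -1.02 ± 0.38 SE (adjusted p = 0.476, limma). In Clec9agfp/gfp FL against Clec9agfp/gfp control the log2 fold change of Pik3ap1 was 0.05 (95% interval -0.53 to 0.62, limma). Over both genotypes it was 0.56 ± 0.19 SE (adjusted p = 0.0751 in limma), a call that held in 12 of 23 alternative fits.

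Vav1, the exchange factor that activates Rac GTPases downstream of SYK, passed in no comparison. It lies on chromosome 17 (57279100 to 57328031, plus strand) and had 271, 269 and 365 CPM in Clec9agfp/gfp FL, 229, 285 and 325 CPM in WT FL, 239, 369.7 and 365 CPM in Clec9agfp/gfp control and 209, 337 and 177 CPM in WT control. The log2 fold change was 0.25 (95% interval -0.28 to 0.78) in WT FL against WT control and -0.09 (-0.62 to 0.44) in Clec9agfp/gfp FL against Clec9agfp/gfp control in limma.

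Inpp5d encodes SHIP-1, which turns PIP3 into a lipid with 1 phosphate less and lies on chromosome 1 (87620312 to 87720507, plus strand). It had 419.5, 438 and 568 CPM in Clec9agfp/gfp FL, 357, 519.6 and 613 CPM in WT FL, 448, 336 and 389.8 CPM in Clec9agfp/gfp control and 188, 347 and 133 CPM in WT control. WT control replicate 2 lay just below the lowest WT FL library, and replicates 1 and 3 lay below all other libraries. Inpp5d had the largest difference of the members in WT FL against WT control, 2.35-fold (log2 fold change 1.23 ± 0.29 SE, adjusted p = 0.0473 in limma). Over both genotypes it was 1.69-fold higher in FL than in control (log2 fold change 0.76 ± 0.20 SE, adjusted p = 0.0295 in limma), a call that was lost without WT control replicates 1 and 3 (0.38, adjusted p = 0.295). Within Clec9agfp/gfp mice the log2 fold change was 0.28 (95% interval -0.33 to 0.89, limma), and the interaction was -0.96 ± 0.41 SE (adjusted p = 0.523, limma).

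Ptpn11 was the only member called lower in FL. SHP-2, its product, is a tyrosine phosphatase that mostly promotes signaling through the Ras pathway, and the gene lies on chromosome 5 (121130533 to 121191397, minus strand). Ptpn11 had 26.6, 39.3 and 31.3 CPM in Clec9agfp/gfp FL, 46.9, 38.0 and 45.5 CPM in WT FL, 49.4, 68.1 and 48.8 CPM in Clec9agfp/gfp control and 63.4, 46.6 and 84.1 CPM in WT control. All Clec9agfp/gfp FL libraries lay below all libraries of that genotype given the empty plasmid, whereas WT FL replicate 1 lay just above WT control replicate 2. Over both genotypes Ptpn11 fell to 0.641 of the control level (log2 fold change -0.64 ± 0.17 SE, adjusted p = 0.0290 in limma). The log2 fold change was -0.76 ± 0.24 SE (adjusted p = 0.112) in Clec9agfp/gfp FL against Clec9agfp/gfp control and -0.53 ± 0.24 SE (adjusted p = 0.218) in WT FL against WT control in limma. The interaction was -0.23 (95% interval -0.96 to 0.50).

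Ptpn6, in contrast, did not pass in any comparison. SHP-1 is the phosphatase that binds inhibitory receptors and dephosphorylates SYK-pathway proteins, and its gene lies on chromosome 6 (124720707 to 124738714, minus strand). Ptpn6 had 508, 574 and 634 CPM in Clec9agfp/gfp FL, 472, 479 and 559.7 CPM in WT FL, 487, 634 and 618 CPM in Clec9agfp/gfp control and 429, 604 and 492 CPM in WT control. Its log2 fold change was -0.01 (95% interval -0.41 to 0.38) in Clec9agfp/gfp FL against Clec9agfp/gfp control and 0.00 (-0.40 to 0.39) in WT FL against WT control in limma. In Clec9agfp/gfp FL against WT FL it was 0.18 (-0.21 to 0.58). Differences within these intervals remain possible. The ratio of Ptpn6 to Syk CPM was 8.35 to 12.8 in Clec9agfp/gfp FL, 5.99 to 9.40 in WT FL, 8.06 to 11.6 in Clec9agfp/gfp control and 10.3 to 15.5 in WT control, lower in every WT FL library than in every WT control library. An antisense gene outside the table overlaps 195 exonic bases of Ptpn6, and since the libraries kept no strand its reads cannot be told apart there; the same holds for 87 exonic bases of Card9.

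The CARD9-BCL10-MALT1 complex passes the signal to NF-kB, and none of its genes passed in any comparison. Card9, the scaffold of SYK-coupled receptors in myeloid cells (chromosome 2, 26352176 to 26360918, minus strand), was the lowest member, with 9.34, 7.48 and 5.81 CPM in Clec9agfp/gfp FL, 8.64, 3.61 and 4.63 CPM in WT FL, 4.48, 7.96 and 6.69 CPM in Clec9agfp/gfp control and 5.62, 4.87 and 7.09 CPM in WT control. All groups overlapped, and the library with the fewest reads, Clec9agfp/gfp control replicate 3, held 20. Intervals were wide also between groups that do not hold that library. They were -0.29 to 1.12 in Clec9agfp/gfp FL against WT FL and -0.82 to 0.60 in WT FL against WT control in limma. Bcl10, the adaptor of the complex (chromosome 3, 145922804 to 145934356, plus strand), had 55.0, 58.0 and 56.4 CPM in Clec9agfp/gfp FL, 48.4, 43.2 and 46.5 CPM in WT FL, 40.2, 56.7 and 47.8 CPM in Clec9agfp/gfp control and 37.4, 58.2 and 58.7 CPM in WT control. It was the only member whose FL libraries did not overlap between genotypes, with a log2 fold change of 0.29 (95% interval -0.17 to 0.75, adjusted p = 1.00 in limma) in Clec9agfp/gfp FL against WT FL.

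Malt1 encodes the paracaspase of the complex. It had 15.3, 13.4 and 24.0 CPM in Clec9agfp/gfp FL, 18.5, 34.7 and 11.7 CPM in WT FL, 24.7, 24.9 and 20.4 CPM in Clec9agfp/gfp control and 17.1, 12.1 and 10.9 CPM in WT control. The controls did not overlap between genotypes (log2 fold change 0.78 ± 0.34 SE, adjusted p = 0.224 in limma; 0.88, adjusted p = 0.999 without WT control replicates 1 and 3), while the FL groups overlapped each other and the controls of their genotype.

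The 4 members called in WT FL against WT control all have long transcripts. Over all genes, the median log2 fold change in that comparison was -0.38 in the shortest of the 5 length bins (median 1175 bases), -0.16, 0.07 and 0.23 in the next 3 bins and 0.31 in the longest (median 6478 bases). In the longest bin 12.5% of genes were called higher and in the fourth 9.35%, against 0.355% in the shortest. Plcg2 (4298 bases) and Pik3ap1 (4482) fall in the fourth bin, and Inpp5d (4937) and Syk (5363) in the longest, which also holds Malt1 (5331) and Ptpn11 (5599). After each library's trend with transcript length was removed, a fit chosen after seeing the data, Inpp5d stood at 0.92 (adjusted p = 0.114), Pik3ap1 at 0.77 (0.139), Plcg2 at 0.58 (0.185) and Syk at 0.43 (0.301) in WT FL against WT control in limma, and 0 of 10 members and 61 genes in all were called. Over both genotypes, Inpp5d (0.59, adjusted p = 0.0445) and Ptpn11 (-0.83, adjusted p = 0.0178) still passed in limma after that correction, and Pik3ap1 (adjusted p = 0.133) did not. The part that transcript length played in the uncorrected differences was not tested beyond these fits.

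**Figure D3:**
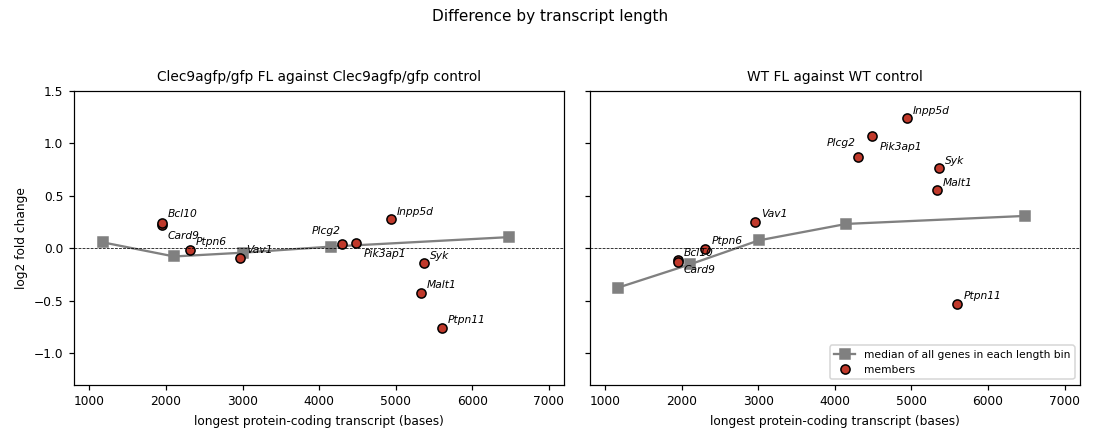
Each panel plots the log2 fold change against the length in bases of the longest protein-coding transcript, with grey squares for the medians of all genes in each length bin and red points for members. In WT FL against WT control the grey line climbs, -0.38 in the shortest and 0.31 in the longest bin; in Clec9agfp/gfp FL against Clec9agfp/gfp control it lies at 0.06 in the shortest and 0.10 in the longest.

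These calls depended on single libraries. Without WT control replicates 1 and 3 together, which leaves a single WT control library whose spread was taken from the other groups, no member was called in WT FL against WT control, and the log2 fold changes were 0.75 for Syk, 0.48 for Inpp5d, 0.29 for Pik3ap1 and 0.14 for Plcg2 (adjusted p = 0.840 to 0.935 in limma). Without WT control replicate 3 alone, or without WT FL replicate 2 or 3, no member was called in that comparison either, and without WT control replicate 1 only Inpp5d was called. Without Clec9agfp/gfp FL replicate 1 or 2, WT FL replicate 1 or Clec9agfp/gfp control replicate 2 or 3, the calls were Inpp5d and Pik3ap1. Without WT control replicate 2 the calls instead extended to 5 of 10 members in that comparison, where 22.5% of all genes passed. In Clec9agfp/gfp control against WT control that fit called Inpp5d, Plcg2, Vav1 and Pik3ap1, where 20.7% of all genes passed. In the interaction it called Pik3ap1, which passed there in 1 of 23 alternative fits. Pik3ap1 was also called between controls without Clec9agfp/gfp control replicate 1, and so in 2 of 24 alternative fits there. Shares of all genes are not given for that interaction, nor for the controls without Clec9agfp/gfp control replicate 1. Ptpn11 over both genotypes passed in each of 22 of 23 alternative fits and failed without WT control replicates 1 and 3 together (log2 fold change -0.43, adjusted p = 0.241 in limma), a fit in which it was called in Clec9agfp/gfp FL against Clec9agfp/gfp control (-0.76, adjusted p = 0.0599). In the same fit Pik3ap1 over both genotypes stood at 0.17 (adjusted p = 0.606 in limma). Ptpn11 was also called in Clec9agfp/gfp FL against Clec9agfp/gfp control without Clec9agfp/gfp FL replicate 2, without WT control replicate 2 and without WT control replicate 3. In Clec9agfp/gfp FL against WT control, no member was called without WT control replicates 1 and 3 together, where Pik3ap1 stood at 0.46, Inpp5d at 0.44, Plcg2 at 0.09 and Ptpn11 at -0.53 (adjusted p = 0.558 to 0.926 in limma), and 1 member was called without Clec9agfp/gfp FL replicate 3 or without WT control replicate 3.

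Members differed in how they varied together over the 12 libraries, given here as a description since the libraries share the group differences and the length gradient. Inpp5d, Plcg2 and Pik3ap1 followed each other (Pearson r = 0.88 to 0.93), also after group means were removed (r = 0.74 to 0.85). That step keeps the spread within WT control, where replicate 2 lay above replicates 1 and 3 in each of these genes. Ptpn11 ran against Inpp5d (r = -0.76, and -0.70 within groups). Ptpn6 was most like Vav1 among the members (r = 0.85, and 0.86 within groups, where Pik3ap1 reached 0.86 too), and Syk was most like Malt1 (r = 0.78, and 0.76 within groups). Among 9210 genes with a mean CPM of at least 5, those most like Syk were Dock11 (r = 0.94), Crybg1 (0.92) and Tnfaip3 (0.90), the gene of the NF-kB inhibitor A20. Those most like Ptpn6 were Tspyl1 (0.95), Eloa (0.94) and Eya3 (0.93).

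Promoter sequence of the 3 members that followed each other is shown since they were called together in WT FL against WT control. The sequences are the 250 bases before the RefSeq start in GRCm38.p6. Capitals mark AGGAAGT, a core bound by ETS factors such as PU.1, searched on both strands.
Inpp5d promoter, chr1:87620062-87620311, plus strand: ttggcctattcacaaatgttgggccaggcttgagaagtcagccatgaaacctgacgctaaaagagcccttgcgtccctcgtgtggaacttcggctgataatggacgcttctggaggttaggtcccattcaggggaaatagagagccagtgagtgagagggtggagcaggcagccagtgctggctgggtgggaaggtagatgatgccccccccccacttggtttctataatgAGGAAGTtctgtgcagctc
Plcg2 promoter, chr8:117498025-117498274, plus strand: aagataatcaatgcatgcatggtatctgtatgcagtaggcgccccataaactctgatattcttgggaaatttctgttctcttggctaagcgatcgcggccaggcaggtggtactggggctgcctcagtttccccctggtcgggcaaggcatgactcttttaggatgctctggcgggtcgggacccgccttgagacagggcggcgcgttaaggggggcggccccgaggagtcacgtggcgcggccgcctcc
Pik3ap1 promoter, chr19:41385103-41385352, minus strand: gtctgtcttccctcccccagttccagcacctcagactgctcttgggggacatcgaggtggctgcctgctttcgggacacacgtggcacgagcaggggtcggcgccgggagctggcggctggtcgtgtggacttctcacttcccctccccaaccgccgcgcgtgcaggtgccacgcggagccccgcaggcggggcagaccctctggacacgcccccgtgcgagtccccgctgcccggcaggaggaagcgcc
The core was found in Inpp5d, Ptpn6, Vav1 and Card9, 4 of the 9 members matched for this search, and in none of the 250 bases of Plcg2, Pik3ap1, Syk, Ptpn11 and Bcl10, while 7.69% of 32851 promoters of the same length held it. The AP-1 motif TGANTCA was in none of the 9 and in 6.75% of all promoters.

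Other hemITAM receptors were also measured. Clec7a had 2389.8, 1800.0 and 2547 CPM in Clec9agfp/gfp FL and 118, 190.3 and 84.6 CPM in WT FL, and 1430.1, 1339.6 and 1969.8 CPM in Clec9agfp/gfp control and 54.5, 61.1 and 119 CPM in WT control. Every Clec9agfp/gfp library exceeded every WT library by far. Clec7a was 17.8-fold higher in Clec9agfp/gfp FL than in WT FL (log2 fold change 4.15 ± 0.30 SE, adjusted p = 1.26e-06 in limma) and 20.9-fold higher in Clec9agfp/gfp control than in WT control (4.38 ± 0.30 SE, adjusted p = 1.1e-06), and the interaction was -0.23 (95% interval -1.14 to 0.68). It was called in all 24 alternative fits of each comparison, and was with Clec9a among the 3 genes called in them. Clec7a lies on chromosome 6 (129461591 to 129472779, minus strand), near the targeted Clec9a gene (129408862 to 129424763, plus strand), and the annotation types it as a polymorphic pseudogene. A part of the targeted locus or of the DNA around it in this difference was not tested. Clec1b, on the other side of Clec9a, was low, at 5.18, 6.03 and 4.71 CPM in Clec9agfp/gfp FL, 3.81, 2.97 and 1.68 CPM in WT FL, 5.28, 6.44 and 5.39 CPM in Clec9agfp/gfp control and 1.66, 1.35 and 1.35 CPM in WT control. The libraries did not overlap between genotypes, but Clec1b was called in neither of these comparisons (log2 fold change 0.76 ± 0.31 SE, adjusted p = 1.00 in FL, and 1.45 ± 0.31 SE, adjusted p = 0.188 in control, limma). In the controls it was called in 3 of 24 alternative fits: without Clec9agfp/gfp control replicate 1, without WT control replicate 2 and after the correction for transcript length. It shares 184 exonic bases with Clec9a.

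**Figure D4:**
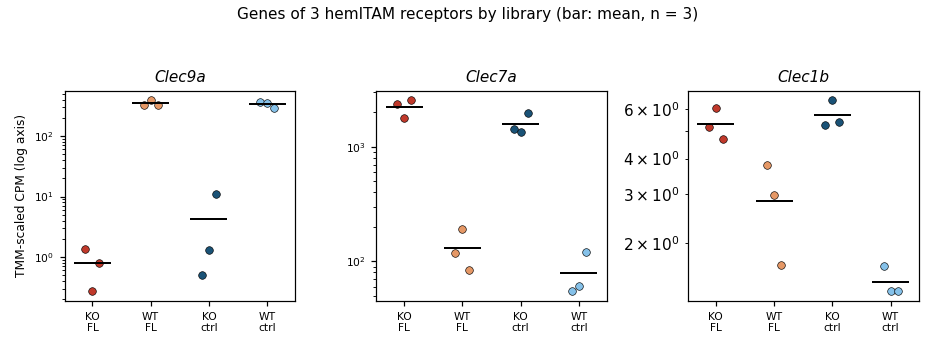
Panels plot Clec9a, Clec7a and Clec1b, with the group on the horizontal axis (KO, Clec9agfp/gfp; ctrl, empty plasmid) and TMM-scaled CPM on a log axis; points are libraries and bars means. Clec7a is at 1339.6 CPM or more in all Clec9agfp/gfp libraries and at 190.3 CPM or less in all WT libraries, opposite to Clec9a.

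Around the members, 8 lists of 111 pathway genes had 96 genes in the test. In WT FL against WT control 11 of 96 rose and none fell (11.5%, beside 6.56% of all genes), and in Clec9agfp/gfp FL against Clec9agfp/gfp control 3 rose and 1 fell (4.17%, beside 5.46%). The rises in WT FL lay in 4 lists. Among PI3K genes, 3 of 12 rose, the leukocyte catalytic subunit Pik3cd (log2 fold change 1.13, adjusted p = 0.0547 in limma) and the regulatory subunits Pik3r5 (0.96) and Pik3r1 (0.90), and the median of the list was 0.49. Among partners and substrates of CARD9-BCL10-MALT1, 4 of 17 rose, among them the ubiquitin ligase Traf6 (1.17), Tnfaip3 (1.00) and the kinase Ikbkb (0.75), with a list median of 0.38. Among protein kinase C and calcium genes, 3 of 14 rose, the transcription factors Nfatc2 (0.83) and Nfatc1 (0.80) and the calcium channel Itpr1 (0.73). Among adaptors and kinases next to SYK, 1 of 17 rose, the ubiquitin ligase Cblb, which limits receptor signaling.

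Cblb rose in both genotypes, with calls that rested on single libraries. It had 161, 115 and 235 CPM in Clec9agfp/gfp FL and 60.4, 68.8 and 73.3 CPM in Clec9agfp/gfp control, and 84.3, 134 and 122 CPM in WT FL and 26.5, 52.9 and 34.1 CPM in WT control, so that FL and control libraries overlapped in neither genotype. The log2 fold change was 1.27 (adjusted p = 0.0258) in Clec9agfp/gfp and 1.59 (adjusted p = 0.0331) in WT in limma. The call was lost without Clec9agfp/gfp FL replicate 3 in Clec9agfp/gfp, and without WT FL replicate 2 or WT control replicate 3 in WT, while over both genotypes Cblb was called in 23 of 23 alternative fits. Pik3r1 was called in both genotypes as well (1.18 in Clec9agfp/gfp, adjusted p = 0.0353 in limma), a call that was lost in Clec9agfp/gfp without FL replicate 3, control replicate 1 or control replicate 3, and that held in WT in 10 of 24 alternative fits. Among the inhibitory receptors Cd72, a B cell and dendritic cell receptor that recruits SHP-1, rose in Clec9agfp/gfp FL (0.97, adjusted p = 0.0583 in limma), and Ppp3r1, the regulatory subunit of calcineurin, fell to 34.0, 54.2 and 36.9 CPM, against 94.4, 162 and 155 CPM in Clec9agfp/gfp control (log2 fold change -1.69, adjusted p = 0.0198 in limma). In WT, Ppp3r1 had 58.5, 135 and 51.9 CPM in FL and 140, 79.7 and 168 CPM in control, with overlap and without a call. Over both genotypes Ppp3r1 was called in 22 of 23 alternative fits. Without Clec9agfp/gfp FL replicate 3, 0 of 96 genes were called in Clec9agfp/gfp FL against Clec9agfp/gfp control, and Cd72 was called there in 18 of 24 alternative fits. The macrophage and monocyte genes that also rose in that comparison are given above, and their part in these differences, as in that of Ptpn11, was not tested. No gene of the Src family list (6 of 9 tested), of the other tyrosine phosphatases (10 of 10) or of the receptors (8 of 13) passed between FL and control in a single genotype, and of the 12 of 16 inhibitory receptors Cd72 alone did. Between genotypes Clec7a was the only 1 of 96 called, with either plasmid, and the interaction called 0 of 96 in limma, with 8 at an unadjusted p under 0.05, near the 9.12% of all genes. Without WT control replicate 2, however, 29 of 96 were called in Clec9agfp/gfp control against WT control (21 higher and 8 lower, beside 20.7% of all genes), and 7 over both plasmids (beside 4.32%). The smallest p values in the interaction with all libraries were those of Cd72 (1.157) and of Rc3h1, a MALT1 substrate (-1.11, adjusted p = 0.455 for both).

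Like the members, the genes called in WT FL against WT control depended on single libraries. Without WT control replicates 1 and 3 together, without WT control replicate 3 alone or without WT FL replicate 2, 0 of 96 were called, and without WT FL replicate 3 only Cblb was. Without WT FL replicate 1 or any 1 Clec9agfp/gfp library 5 to 10 were called, without WT control replicate 1 there were 5, and without WT control replicate 2 there were 25 (19 higher and 6 lower, beside 22.5% of all genes). After the correction for transcript length only Cblb was called. Over both genotypes, 12 of 96 were higher in FL and 3 lower (15.6%, beside 17.5% of all genes). After the correction 11 were higher and 6 lower, and the share of all genes in that fit is not given here. Without WT control replicates 1 and 3, the genes called over both genotypes were Cblb and Itpr1.

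**Figure D5:**
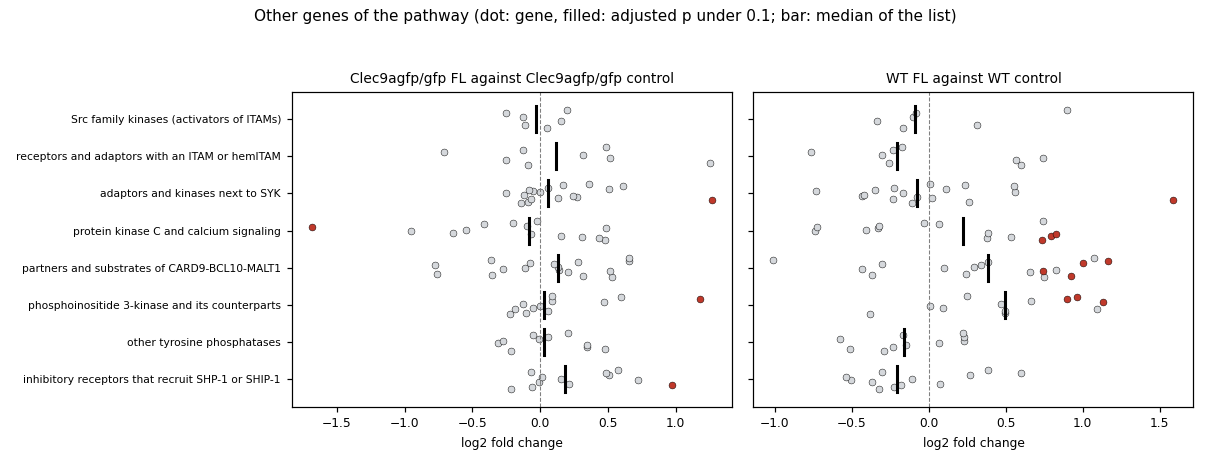
Rows are the 8 lists, each dot is a gene at its log2 fold change on the horizontal axis, filled at an adjusted p under 0.1, and black bars are list medians. The left panel (Clec9agfp/gfp FL against Clec9agfp/gfp control) holds 4 filled dots and the right panel (WT FL against WT control) 11, all to the right of 0.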

How the data were processed

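cDC1s were enriched with CD11c beads and sorted by surface proteins (CD103+ CD24+ cells without CD11b, Ly6C or F4/80, within the CD45+ MHCII+ gate), and cDNA made with the SMARTer and Nextera XT kits was sequenced as single reads that keep no strand. According to the submitters' processing notes, CASAVA 1.8.2, cutadapt 1.3 and RSEM 1.2.3 were used, with the GRCm38 genome. The deposited values are a signal, TMM-scaled CPM values of 11264 genes left after the authors' filter, whose limit is not given in the sources used here. Their steps fit a whole number plus 0.5 divided by an effective library size, from which depth and counts were taken. The offset makes a value at 0 reads small but above 0, and scaling assumes that most genes do not change.

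Values were tested as log2(value + 1) for the 11255 genes with a mean of at least 1, with limma 3.58.1 in R 4.3.3 (1 mean per group, moderated with a mean-variance trend) and Benjamini-Hochberg adjustment within each of 8 comparisons. Intervals are 95% intervals of that fit, and the exact permutation test of 3 against 3 libraries cannot go below 0.1. The script was tested on simulated data. Named pathway genes were those called in a comparison of groups that differ in 1 factor and, up to 30, those with the smallest p of each list in the interaction or in either factor. Members and lists were chosen with earlier results of these data known. Labels number 3 libraries per group, each a pool of mice, and p-values measure the spread between these pools; no pair of libraries held identical values. Coordinates and lengths are from GENCODE M21 and promoters from RefSeq. Alternatives varied the pseudocount, filter, scaling, weights and libraries in the fit. Values of 1 pathway gene that was called are not reported here.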

Additional observations from a re-analysis of the deposited data

How the results depend on the processing

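Of 1890 fold changes of members recomputed under alternatives, 1795 were counted as unchanged, 66 lost a call, 20 gained a call, 5 moved and 4 reversed. Unchanged ones kept their side of the threshold, but some changed sign. These were uncalled, smaller in size than their SE, and shifted by no more than the SE. Moved ones were also uncalled and below their SE but changed sign with a larger shift. Reversed ones changed sign from a size of at least their SE. All 4 reversals arose without WT control replicates 1 and 3 together, a fit chosen after seeing the data: Vav1 at -0.29 in WT FL against WT control, -0.084 in Clec9agfp/gfp control against WT control and -0.17 in Clec9agfp/gfp FL against WT control, and Ptpn6 at -0.069 in Clec9agfp/gfp control against WT control. In that fit the members called were 1 in Clec9agfp/gfp FL against Clec9agfp/gfp control and 0 in WT FL against WT control, in Clec9agfp/gfp FL against WT control and over both genotypes. The length correction, also chosen after seeing the data, gave 0 in WT FL against WT control. With the compared groups alone in the fit, 0 were called in WT FL against WT control and 1 in Clec9agfp/gfp FL against Clec9agfp/gfp control. Equal column totals and sample quality weights each gave 1 (Ptpn11) in Clec9agfp/gfp FL against Clec9agfp/gfp control. Leaving out each library in turn gave 0 to 1 members in Clec9agfp/gfp FL against Clec9agfp/gfp control, 0 to 5 in WT FL against WT control, 0 in each case in Clec9agfp/gfp FL against WT FL, 0 to 4 in Clec9agfp/gfp control against WT control, 1 to 5 in Clec9agfp/gfp FL against WT control, 2 to 4 over both genotypes, 0 to 3 for genotype over both plasmids and 0 to 1 in the interaction. The highest counts in comparisons with WT control, over both genotypes and over both plasmids came without WT control replicate 2. The shares of all genes called then were 22.5% in WT FL against WT control and 34.6% in Clec9agfp/gfp FL against WT control. They were 20.7% in Clec9agfp/gfp control against WT control, 25.1% over both genotypes and 4.32% for genotype over both plasmids. The share for the interaction in that fit is not given here. The cause of these ranges was not tested. The study describes independent experiments, but no source used here says that a replicate number marks one. Same-numbered libraries gave r = -0.22 to 0.34 in 18 pairs, 5 of them above 0.1, among these all 3 pairs of WT FL with Clec9agfp/gfp control (0.12 to 0.34). The numbers were not taken as pairs; with the replicate block, 3 members were called in WT FL against WT control (Syk missed at an adjusted p of 0.1005 in limma) and no other count of members changed. Tests on whole counts with edgeR or DESeq2 were not run, since the table holds scaled values. At an effective library size of 3.06 M, Clec9agfp/gfp control replicate 3 held 20 reads of Card9 and 62 of Malt1. The part of this depth in their intervals was not tested.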
